A study of Homo sapiens with 12 samples.

Results

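The 10 genes described here belong to the integrated stress response, a program by which cells slow protein synthesis and switch on repair genes. They were chosen by their symbols: ATF4, DDIT3, PPP1R15A, ASNS, TRIB3, CHAC1, SESN2, PSAT1, SLC7A11 and SLC3A2. All 10 were found among the 25268 gene symbols measured, and all 10 were among the 14676 genes with a mean level high enough to be tested. The question was where these mRNAs stood in cells made to overexpress RBMX, an RNA-binding protein known from work on splicing, and how much of each was found on polysomes.

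The cells were HEK293, an established human embryonic kidney line. Transient transfection with Lipofectamine brought in 2 μg of either pCMV6-HIS-HA-RBMX, a plasmid that expresses RBMX with a His-HA tag, or, as control, the mock empty vector. All cultures received cycloheximide, which stalls ribosomes, shortly before lysis, and the lysates were run on sucrose gradients. Total RNA was pooled from an equal share of every fraction, and polysomal RNA came from the heavier fractions that carry mRNAs with several ribosomes. With 3 biological replicates for each vector, these 2 kinds of RNA gave 12 libraries, each made from 500 ng of RNA. Transiently transfected cells are a mixture, and in such bulk samples fewer expressing cells cannot be told apart from less RNA per cell.

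When eIF2 is phosphorylated by one of its kinases, most translation drops while a few mRNAs with upstream open reading frames (uORFs) are read better. ATF4, a bZIP transcription factor, is the best known of them, and it then drives genes for amino acid synthesis, amino acid import and stress handling. DDIT3 (also named CHOP), a second bZIP factor, and PPP1R15A (GADD34), which directs a phosphatase to eIF2 and so ends the response, carry uORFs too.

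ATF4, DDIT3 and PPP1R15A are the members best known for being read through uORFs, so their start contexts are shown. Each line gives 30 bases or fewer around an upstream ATG, 5′ to 3′, with the ATG in capitals, from the chosen GENCODE release 29 transcript of the gene. The ATF4 leader, the stretch before the coding sequence, was 882 bases long and held 7 upstream ATGs. The second of them opened a uORF of 3 codons, while the fifth opened one of 63 codons that ran past the start of the coding sequence.
ATF4 uORF 2: acggccaccATGgcgtattaggggcagcag
ATF4 uORF 5: attctctagATGgccgatctagagaagtcc
DDIT3 uORF 1: gagcgtatcATGttaaagatgagcgggtgg
DDIT3 uORF 3: tgaaagcagATGtgcttttccagactgatc
PPP1R15A uORF 1: gttgatcttATGcaagacgctgcacgaccc
PPP1R15A uORF 2: gagggtgagATGaacgcgctggcctcccta
The DDIT3 leader of 180 bases held 3 upstream ATGs. The uORF numbered 1 had 34 codons, and that numbered 3 ran into the coding sequence. The PPP1R15A leader of 269 bases held uORFs of 22 and 26 codons, both ending before the coding start.

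Upstream ATGs were not limited to these mRNAs. Among 19547 coding genes, 50.1% had at least 1 in the chosen transcript and 16.5% had a uORF overlapping the coding start. TRIB3, a pseudokinase that dampens the response, had 3 upstream ATGs in its leader. ASNS and SLC7A11 had 2 each, and SESN2 and SLC3A2 had 1 each. CHAC1 and PSAT1 had 0. Of the 10 genes, ATF4 and DDIT3 had a uORF reaching into the coding sequence and the other 8 had none.

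**Figure D1:**
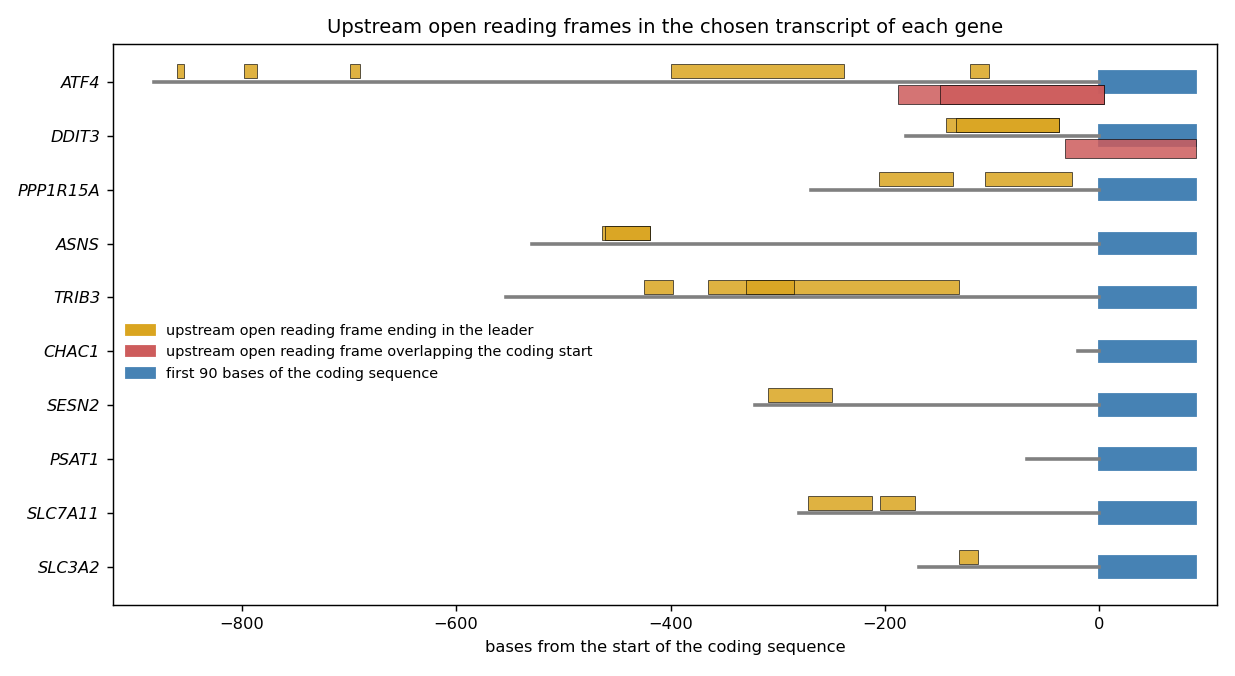
Upstream open reading frames in the chosen transcript of each of the 10 genes. The x axis gives bases from the start of the coding sequence, grey lines are leaders, yellow boxes are uORFs that end in the leader, red boxes are uORFs that overlap the coding start and blue boxes mark the beginning of the coding sequence, where the red DDIT3 box is cut off. ATF4 has the longest leader, at 882 bases, and only ATF4 and DDIT3 of the 10 have red boxes.

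ATF4 acts with C/EBP proteins on composite elements that read TGATGNAA. The letters were searched on both strands of RefSeq promoter windows (GRCh38.p14), from 250 bases before to 50 after each start. They were found in at least 1 window of ASNS, CHAC1 and SLC3A2, against 4.46% of 27305 genes. ATF4, DDIT3, PPP1R15A, TRIB3, SESN2 and PSAT1 had no match in these windows, and no window was given for SLC7A11. The matching stretches are shown because they mark which of the targets hold the letters, with the motif in capitals, on the strand of the gene.
ASNS, chr7:97872458-97872487, minus strand: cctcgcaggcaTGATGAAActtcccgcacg
CHAC1, chr15:40953251-40953280, plus strand: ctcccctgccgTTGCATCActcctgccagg
SLC3A2, chr11:62881719-62881748, plus strand: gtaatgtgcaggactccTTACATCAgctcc
In ASNS the element started at position -68 and stood in the direction of the gene. The same stretch lay in the leader of the chosen ASNS transcript and held its upstream ATGs. In CHAC1 the match started at position -209 and in SLC3A2 at position 38 of 1 of its 3 windows, both on the opposite strand.

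The level of RBMX matched the labels in every library. It was 87.4 to 148 FPKM in the 6 control libraries and 1072 to 2073 FPKM in the 6 RBMX libraries, where FPKM counts sequenced fragments relative to transcript length and to the size of the library. All 8 HEK293 marker genes were found, from PAX2 at 2.49 to 8.80 FPKM up to VIM at 217 to 577 FPKM. Of 6 markers of blood, fibroblast, endothelial and liver cells, COL1A1 reached 3.14 to 8.61 FPKM and the others stayed at or under 0.226 FPKM. Small RNA genes took 40.6% to 72.9% of the summed FPKM of a library, and the number of fragments behind the values is unknown. Control replicate 3 stood apart from control replicates 1 and 2 in both fractions. On the log2(FPKM + 1) scale it differed from their mean by over 0.5 in 12.1% of 14176 genes in total RNA and in 18.9% in polysomal RNA. The summed FPKM of the 8 HEK293 markers was 484 in its total and 446 in its polysomal RNA, and 899 to 1036 in the other 10 libraries. Among the 10 genes, its differences were -0.54 for ASNS and -0.68 for PSAT1 in total RNA, and -1.03 and -1.10 in polysomal RNA. DDIT3 differed the other way, by 0.36 in total RNA and 0.65 in polysomal RNA.

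ATF4 was by far the most abundant of the 10 mRNAs. In control total RNA it stood at 567 ± 19.1 FPKM (SD, n = 3), above 98.2% of the genes tested. SLC3A2, the heavy chain shared by several amino acid transporters, followed at 138 ± 5.85 FPKM. PSAT1, an enzyme of serine synthesis, had 88.8 ± 22.2 FPKM and overlapped with PPP1R15A at 81.4 ± 4.95 FPKM. The next pair also overlapped, with ASNS, which makes asparagine, at 51.0 ± 10.4 FPKM and DDIT3 at 46.2 ± 7.28 FPKM. TRIB3 had 35.0 ± 1.65 FPKM and SESN2, a sestrin that restrains mTORC1, 20.7 ± 2.87 FPKM. CHAC1, which breaks down glutathione, had 7.26 ± 0.872 FPKM, and SLC7A11, the cystine importer that pairs with SLC3A2, had 2.88 ± 0.513 FPKM. The last 4 did not overlap with their neighbours in this order. Both ends of the order, ATF4 and SLC7A11, were the same genes in all 4 groups.

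**Figure D2:**
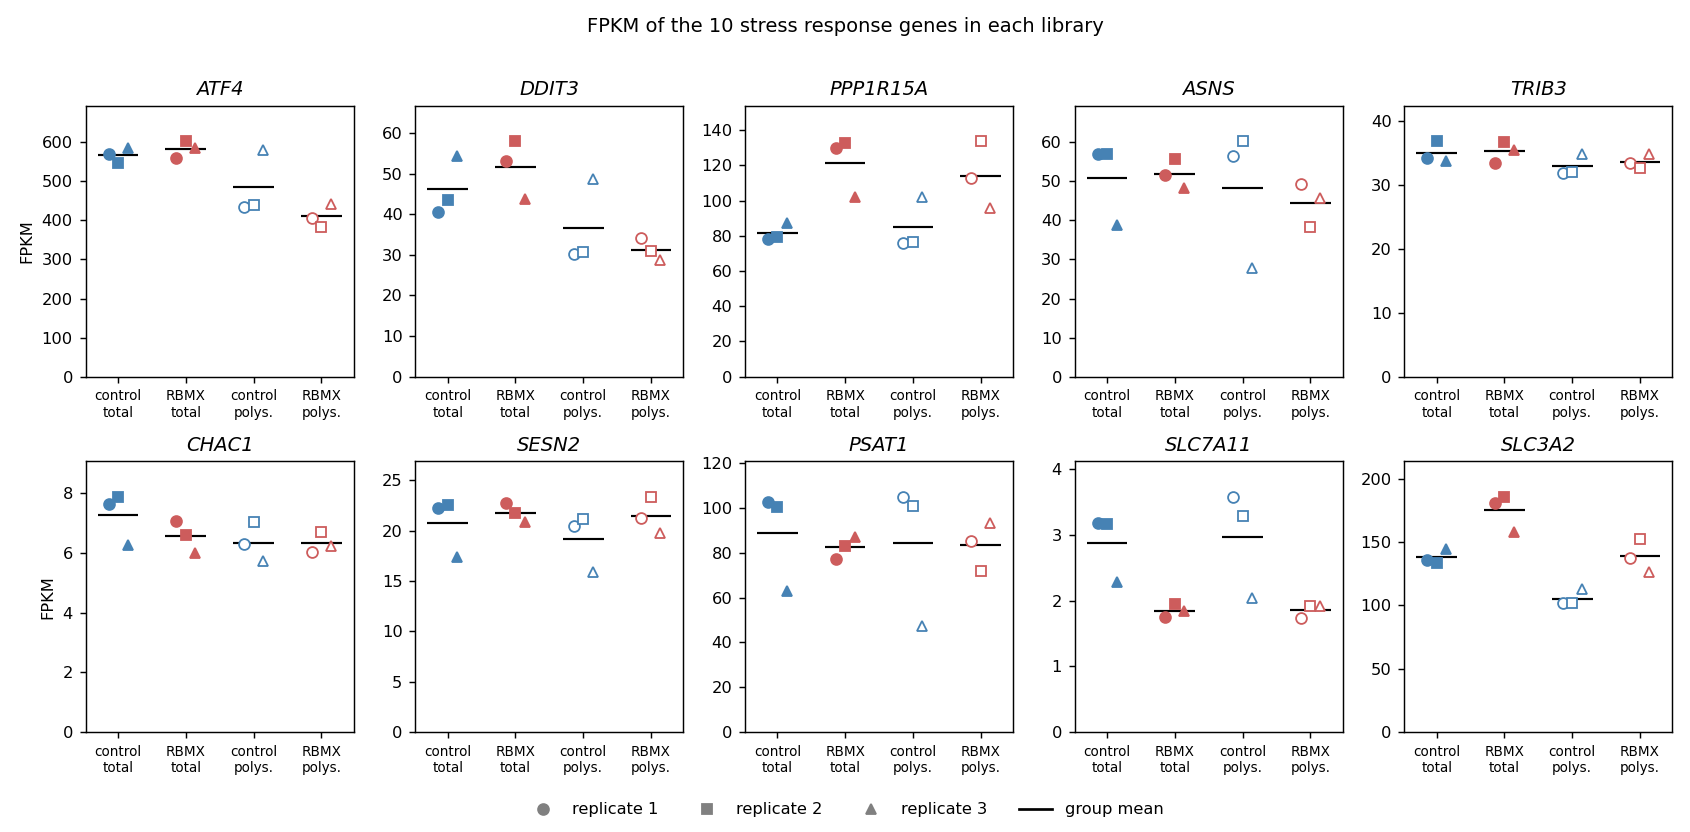
FPKM of each of the 10 genes in the 12 libraries, on linear axes that start at 0. Points are libraries (circles, squares and triangles for replicates 1, 2 and 3; blue for control, red for RBMX; filled for total, open for polysomal RNA) and black lines are group means. PPP1R15A and SLC3A2 lie higher and SLC7A11 lower in the 3 RBMX total libraries than in the 3 control ones, and control replicate 3 is the low point for ASNS and PSAT1.

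In total RNA, RBMX was compared with control to see whether overexpression moved the steady level of these mRNAs. ATF4 measured 571, 547 and 584 FPKM in the control replicates and 559, 602 and 585 FPKM in the RBMX replicates. These ranges overlapped, and the difference was 0.04 on the log2(FPKM + 1) scale (SE 0.078, 95% confidence interval -0.16 to 0.23), with an adjusted p = 0.818 in limma's test with Benjamini-Hochberg adjustment. The direction of so small a value is not fixed, since it was -0.22 after quantile normalization. DDIT3 measured 40.6, 43.6 and 54.4 FPKM in control and 53.2, 57.9 and 43.7 FPKM in RBMX total RNA. Its groups overlapped as well, with a log2 difference of 0.16 (95% interval -0.22 to 0.54). It was 0.28 without control replicate 3, and 0.072 without either control replicate 1 or RBMX replicate 2.

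PPP1R15A had the largest difference of the 10. It measured 78.0, 79.1 and 87.1 FPKM in control and 129.7, 133 and 102 FPKM in RBMX total RNA. All 3 RBMX libraries lay above all 3 controls, with means 1.49-fold apart. The log2 difference was 0.56 (SE 0.12, 95% interval 0.27 to 0.86), which was above 97.2% of the genes tested. Its unadjusted p was 0.00398 and its adjusted p = 0.170 in limma, so the difference did not pass the threshold of 0.05. Without RBMX replicate 3 it was 0.68 with an adjusted p = 0.042, the sole alternative in total RNA in which any of the 10 passed.

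SLC3A2 measured 136, 133 and 144 FPKM in control and 181, 186 and 158 FPKM in RBMX total RNA, again without overlap. Its log2 difference was 0.34 (SE 0.082) with an adjusted p = 0.176 in limma. Its partner SLC7A11 differed the other way, with 3.19, 3.16 and 2.29 FPKM in control and 1.74, 1.94 and 1.84 FPKM in RBMX total RNA. The RBMX mean was 0.641 of the control mean, with a log2 difference of -0.44 (SE 0.11, adjusted p = 0.176 in limma). The chains of this cystine transporter thus differed in opposite directions, and neither difference passed the threshold.

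The other 5 genes overlapped between the vectors in total RNA. Their log2 differences were 0.04 for ASNS, 0.01 for TRIB3, -0.13 for CHAC1, 0.08 for SESN2 and -0.07 for PSAT1, and those of ASNS and TRIB3 turned negative with equal sums or quantile normalization. The 95% intervals were narrowest for TRIB3, at -0.14 to 0.17, and widest for PSAT1, at -0.57 to 0.43. PSAT1 measured 103, 101 and 63.2 FPKM in control, so that its spread came from replicate 3, and 77.4, 83.1 and 87.1 FPKM in RBMX. Without control replicate 3 its log2 difference was -0.30.

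Counted over the list, 0 of the 10 genes passed limma's adjusted threshold in total RNA, where 0.164% of all genes tested did. At an unadjusted p under 0.05, 3 of the 10 passed (PPP1R15A and SLC3A2 higher, SLC7A11 lower), beside 18.8% of all genes. The same 3 were those whose replicates did not overlap, beside 27.3% of all genes. The median difference was 0.04 over the 10 genes and 0 over all genes, so the median of the list lay near the middle of the distribution. Single members lay toward both ends, with PPP1R15A at percentile 97.2 of all genes tested, SLC3A2 at 93.1 and SLC7A11 at 1.75. The median over the 10 genes was -0.03 with quantile normalization and -0.024 without control replicate 3.

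In polysomal RNA the same comparison showed whether the polysomal level of these mRNAs moved with RBMX. This level also carries any difference in total RNA. ATF4 measured 433, 439.9 and 581 FPKM in control and 405, 384 and 442 FPKM in RBMX polysomal RNA. The RBMX range overlapped with that of control replicates 1 and 2 and lay under replicate 3. The log2 difference was -0.23 (SE 0.16, 95% interval -0.64 to 0.18), and it was -0.09 without control replicate 3. DDIT3 measured 30.3, 30.7 and 48.6 FPKM in control and 34.1, 30.9 and 28.7 FPKM in RBMX polysomal RNA. Its log2 difference was -0.19, and it changed sign to 0.027 without control replicate 3.

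PPP1R15A measured 76.1, 76.6 and 102 FPKM in control and 113, 134 and 95.8 FPKM in RBMX polysomal RNA. Here control replicate 3 reached above the lowest RBMX library, and the log2 difference was 0.42 (SE 0.18, adjusted p = 0.425 in limma). SLC3A2 measured 101.5, 101.6 and 113 FPKM in control and 138, 152 and 127 FPKM in RBMX polysomal RNA, with no overlap. Its log2 difference of 0.39 (SE 0.10, adjusted p = 0.400 in limma) stood beside 0.34 in total RNA. SLC7A11 measured 3.58, 3.29 and 2.05 FPKM in control and 1.74, 1.93 and 1.92 FPKM in RBMX polysomal RNA, also without overlap. Its log2 difference was -0.45 (SE 0.16, adjusted p = 0.415 in limma), beside -0.44 in total RNA.

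None of the 10 genes passed the adjusted threshold of limma in polysomal RNA (0 of 10), where 0.0477% of all genes did. At an unadjusted p under 0.05, 2 of the 10 passed (SLC3A2 and SLC7A11), beside 11.7% of all genes, and the same genes were those without overlap, beside 22.5% of all genes. The remaining log2 differences were -0.05 for ASNS, 0.03 for TRIB3, -0.0024 for CHAC1, 0.16 for SESN2 and 0.06 for PSAT1. For ASNS the 95% interval ran from -0.82 to 0.73, since control replicate 3 measured 27.9 FPKM beside 56.4 and 60.2 FPKM in replicates 1 and 2.

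**Figure D3:**
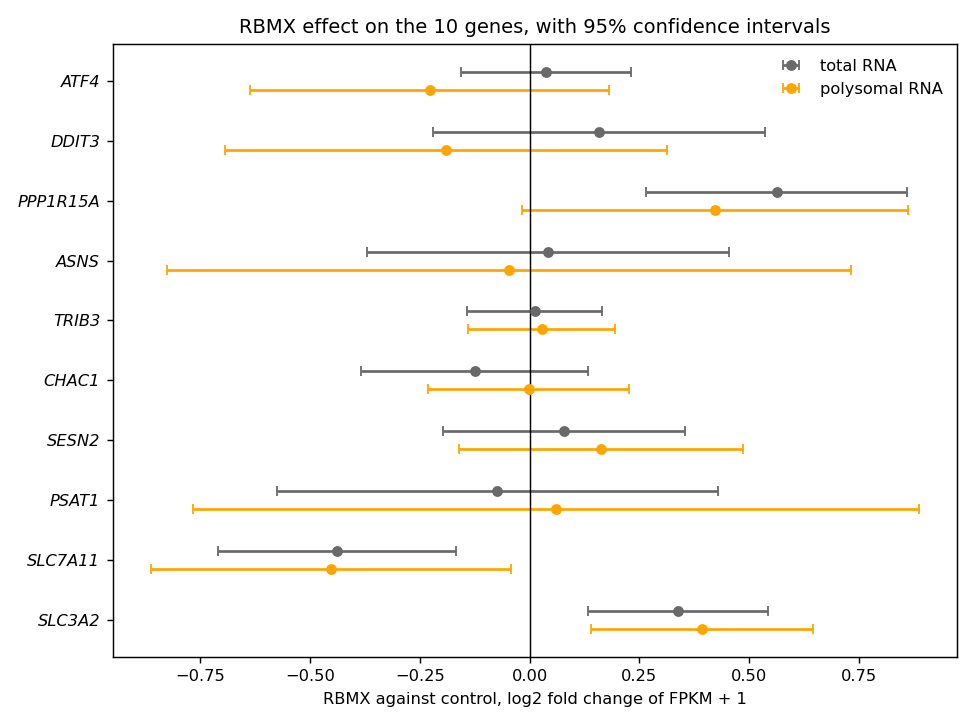
Log2 difference of FPKM + 1 between RBMX and control for each of the 10 genes, in total RNA (grey) and polysomal RNA (orange). Points are limma estimates from 3 against 3 libraries and bars are 95% confidence intervals. The intervals of PPP1R15A in total RNA and of SLC3A2 and SLC7A11 in both fractions leave out 0, and 0 of the 10 genes pass after adjustment over all genes.

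Interferon-stimulated genes moved with the vector and with the replicates. The summed FPKM of 8 of them (IFIT1, IFIT2, IFIT3, ISG15, MX1, OAS1, DDX58 and IFIH1) was 302 to 584 in control and 1003 to 3597 in RBMX total RNA. In polysomal RNA it was 345 to 545 in control and 1085 to 3542 in RBMX. All 8 were higher in RBMX in every library, in both fractions, with a median log2 difference of 2.38 in total and 2.31 in polysomal RNA. Replicates did not overlap for 27.3% of all genes in total and 22.5% in polysomal RNA. None of the 8 passed the adjusted threshold of limma, where 0.164% and 0.0477% of all genes did. IFIT2 passed in total RNA without RBMX replicate 3 (adjusted p = 0.036 in limma), a setting that called 178 genes. All 8 had an unadjusted p under 0.05 in limma, beside 18.8% of all genes in total and 11.7% in polysomal RNA. RBMX replicate 3 had the lowest sum of the RBMX libraries in total RNA, 1003 beside 3358 and 3597. It also had the lowest PPP1R15A and SLC3A2 levels of the RBMX libraries in both fractions, and the lowest RBMX level. Control replicate 3 stood apart over many genes, as given above. It had the lowest RBMX level of the controls, at 108 FPKM in total and 87.4 FPKM in polysomal RNA. Its interferon sums were also the lowest of the controls, at 302 in total and 345 in polysomal RNA. Its PPP1R15A (87.1 and 102 FPKM) and SLC3A2 (144 and 113 FPKM) levels were the highest of the controls. EIF2AK2, the interferon-induced eIF2 kinase PKR, measured 29.5, 34.3 and 21.7 FPKM in control and 41.9, 47.2 and 34.5 FPKM in RBMX total RNA, where RBMX replicate 3 was again the lowest. The part of the interferon genes in the PPP1R15A and SLC3A2 values was not tested.

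Polysomal RNA was compared with total RNA of the same vector to see how far these mRNAs were loaded with ribosomes. Each library is scaled to its own total, so the difference is a share relative to other mRNAs and not an amount. Libraries of 1 vector and 1 number were taken as a pair from the same culture. The protocol takes total RNA from the gradient fractions but also speaks of a dish for each kind of RNA, so this pairing is an assumption, on which the values within cultures rest. In control cells ATF4 measured 567 ± 19.1 FPKM in total and 485 ± 83.5 FPKM in polysomal RNA (SD, n = 3). In RBMX cells it measured 582 ± 21.6 FPKM in total and 411 ± 29.5 FPKM in polysomal RNA. Within cultures, polysomal ATF4 was under total ATF4 in 6 of 6. The log2 difference was -0.40, -0.31 and -0.0082 in control replicates 1 to 3, and -0.46, -0.65 and -0.40 in RBMX replicates 1 to 3.

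In RBMX cells the replicates of ATF4 did not overlap between the fractions, and the log2 difference was -0.50 (SE 0.097, unadjusted p = 0.00259, adjusted p = 0.0857 in limma). The value depended on how libraries are scaled. It was 0.018 after quantile normalization of all genes, and -0.26 when small RNA genes were left out before quantile normalization. With small RNA genes left out and the deposited scaling kept, it stayed -0.50 with an adjusted p = 0.043. With all genes kept and cultures paired, the adjusted p in limma was 0.176. In control cells the log2 difference was -0.24 (SE 0.14, adjusted p = 0.731 in limma), and 0.024 after quantile normalization.

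In RBMX cells DDIT3 lay furthest toward total RNA of the 10 genes. It measured 53.2, 57.9 and 43.7 FPKM in total and 34.1, 30.9 and 28.7 FPKM in polysomal RNA of RBMX cells, with means at a ratio of 0.604 and no overlap. The log2 difference was -0.70 (SE 0.12, 95% interval -1.01 to -0.40), lower than in all but 2.88% of the genes tested. Its unadjusted p was 0.00156 and its adjusted p = 0.0701 in limma, short of the threshold, and with cultures paired the adjusted p was 0.118. In control cells the log2 difference was -0.35 (SE 0.22, adjusted p = 0.751 in limma), beside -0.39 for SLC3A2. DDIT3 was lower in polysomal RNA in 6 of 6 cultures and under all 4 ways of scaling other than the deposited one, in both vectors.

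SLC3A2 was lower in polysomal RNA without overlap in both vectors. In control cells it measured 136, 133 and 144 FPKM in total and 101.5, 101.6 and 113 FPKM in polysomal RNA. The log2 difference within cultures was -0.39 ± 0.034 (SD, n = 3) in control and -0.33 ± 0.055 (SD, n = 3) in RBMX cells, and it was negative in 6 of 6 cultures. In limma its adjusted p was 0.461 in control cells and 0.156 in RBMX cells. With cultures paired, the adjusted p in limma was 0.133 in control cells and 0.156 in RBMX cells. PPP1R15A, the third of the uORF-bearing mRNAs, had log2 differences within cultures of 0.05 ± 0.15 in control and -0.09 ± 0.10 in RBMX cells (SD, n = 3). It was lower in polysomal RNA in 4 of 6 cultures, and its ranges overlapped in both vectors. In RBMX cells its value was 0.029 with quantile normalization.

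**Figure D4:**
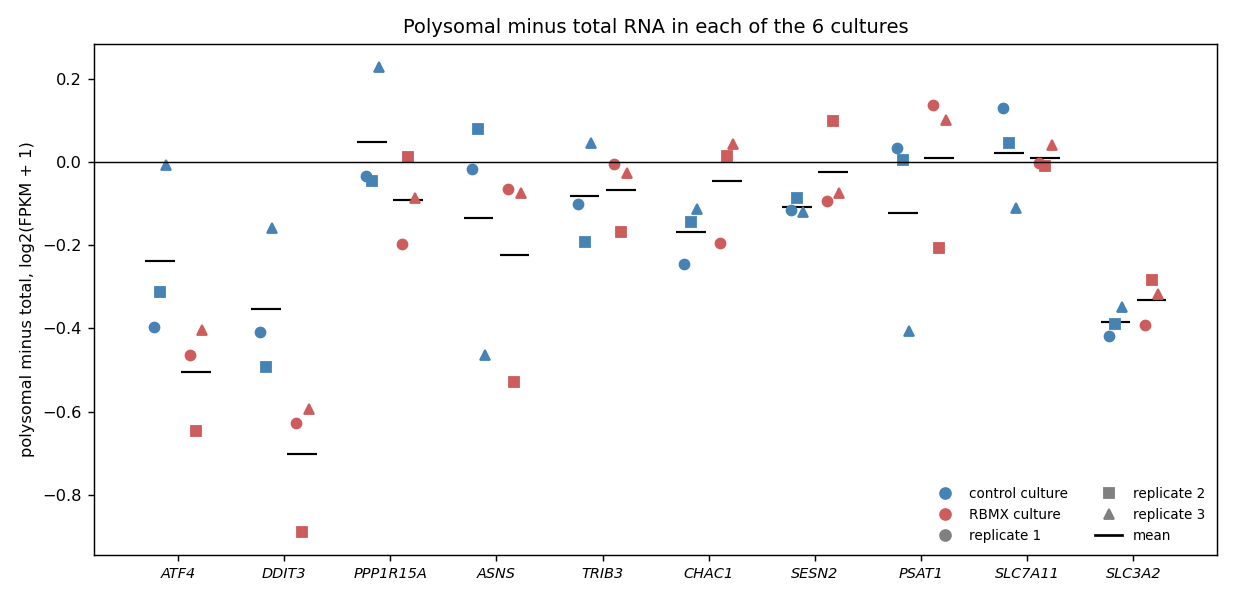
Polysomal minus total log2(FPKM + 1) of the 10 genes in each of the 6 cultures (blue for control, red for RBMX; circles, squares and triangles for replicates 1, 2 and 3), with black lines for the means of 3 cultures. ATF4, DDIT3 and SLC3A2 lie under 0 in all 6 cultures, while every other gene lies on both sides of 0.

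The other amino acid and stress targets lay closer to 0 than ATF4, DDIT3 and SLC3A2, though not all closer than PPP1R15A. TRIB3 had log2 differences of -0.08 in control and -0.07 in RBMX cells, and SLC7A11 had 0.022 and 0.0089. CHAC1 had -0.17 and -0.05, and SESN2 had -0.11 and -0.024. ASNS had -0.13 and -0.22, and PSAT1 had -0.12 and 0.0098, and for both genes the control value rested on replicate 3. Without control polysomal replicate 3, but with the total library of that replicate kept, the control value was 0.21 for ASNS and 0.24 for PSAT1. Within control cultures 1, 2 and 3 it was -0.016, 0.079 and -0.46 for ASNS. For PSAT1 these values were 0.033, 0.0037 and -0.41.

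No member passed limma's adjusted threshold in control cells (0 of 10) or in RBMX cells (0 of 10). Over all genes, 0.0818% passed in control cells and 1.34% in RBMX cells, where 192 of the 196 genes called were lower in polysomal RNA. With cultures paired, 6 genes were called in control cells and 4 in RBMX cells. At an unadjusted p under 0.05, 1 member passed in control cells (SLC3A2), beside 8.04% of all genes, and 3 passed in RBMX cells (ATF4, DDIT3 and SLC3A2), beside 23.0%. With cultures paired, 3 passed in control cells (DDIT3, CHAC1 and SLC3A2), beside 21.0% of all genes, and the same 3 as before in RBMX cells, beside 21.9%. All polysomal replicates lay under all total replicates for SLC3A2 in control cells, beside 7.31% of all genes, and for the same 3 members in RBMX cells, beside 16.2%. The median over the 10 genes was -0.13 in control and -0.08 in RBMX cells, and over all genes 0 and -0.0011. In RBMX cells 8 of the 10 were lower in polysomal RNA as deposited. When libraries were set to equal sums without small RNA genes, which moved the median of all genes to 0.12, 4 of the 10 were lower: ATF4, DDIT3, ASNS and SLC3A2.

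As a class, transcripts with upstream ATGs differed little from the rest. In control cells the median log2 difference was 0.014 over 6059 genes without an upstream ATG and 0.0043 over 6422 genes with at least 1. For 2064 genes whose uORF overlapped the coding start it was 0.0034. In RBMX cells these medians were 0.011, 0.0055 and -0.00063.

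The difference of the RBMX effect between polysomal and total RNA asks whether loading itself moved with RBMX. It was -0.27 (SE 0.18) for ATF4, -0.35 (SE 0.27) for DDIT3 and -0.14 (SE 0.22) for PPP1R15A. Without control polysomal replicate 3, but with the total library of that replicate kept, these values were -0.13, -0.13 and -0.0015. Over all libraries left out in turn they reached down to -0.34, -0.47 and -0.26. For the other 7 genes it lay between -0.09 for ASNS and 0.13 for PSAT1. All adjusted p-values were 1.00 in limma, 0 of the 10 genes passed (0.0204% of all genes did, or 3, and 5 with cultures paired), and 0 had an unadjusted p under 0.05 (0.600% of all genes). With cultures paired, DDIT3 had an unadjusted p of 0.031 in limma, 1 of the 10 beside 2.15% of all genes. For ATF4 and DDIT3 every RBMX culture had a lower polysomal minus total value than every control culture, beside 4.12% of all genes. The nearest ATF4 values were -0.403 in RBMX replicate 3 and -0.397 in control replicate 1. Over all alternatives the difference ranged from -0.34 to -0.0060 for ATF4 and from -0.47 to -0.13 for DDIT3. The exact permutation test over the 3 and 3 cultures gave p = 0.1 for both, the smallest p that this design allows. Without control replicate 3 in both fractions, the difference was -0.15 for ATF4, -0.25 for DDIT3 and -0.050 for PPP1R15A.

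The wider pathway was read from lists of named genes, and in all 5 comparisons 0 genes of these lists passed the adjusted threshold with the data as deposited and all libraries kept. The 4 eIF2 kinases had a median log2 difference of -0.03 between RBMX and control in total RNA. EIF2AK2 had the largest, at 0.53 in total (adjusted p = 0.243 in limma) and 0.75 in polysomal RNA (adjusted p = 0.417), while EIF2AK4, the amino acid sensor GCN2, had -0.21 in total RNA. Of the 8 subunits of eIF2 and its exchange factor eIF2B, 6 were higher in RBMX total RNA, with a median of 0.20. Their summed FPKM was 405, 416 and 342 in control and 414, 422 and 404 in RBMX total RNA, so that control replicate 3 was the low library. Without it 5 of 8 were higher, with a median of 0.016, and 5 of 8 were higher with quantile normalization or equal sums. The highest values were 0.37 for EIF2B5, 0.33 for EIF2B4 and 0.27 for EIF2B2, which became 0.25, 0.13 and 0.16 without control replicate 3. In polysomal RNA, EIF2B5 had 0.32 and EIF2B4 0.29, which became 0.19 and 0.080.

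Among 5 bZIP partners and cofactors of ATF4, the median was 0.16 in total RNA. CEBPG, a C/EBP protein that dimerizes with ATF4, measured 102, 106 and 111 FPKM in control and 78.2, 85.1 and 88.7 FPKM in RBMX total RNA. These groups did not overlap, and the log2 difference was -0.34 (SE 0.069, adjusted p = 0.170 in limma). NUPR1, a small stress-induced chromatin protein, had 0.36 and ATF5 had 0.16. All 5 partners were lower in polysomal than in total RNA in both vectors, with medians of -0.20 in control and -0.15 in RBMX cells, while with equal sums 4 and 3 of the 5 were. The largest were -0.27 for CEBPB and -0.20 for CEBPG in control cells, and -0.38 for ATF3 in RBMX cells.

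The other mRNAs with known uORFs (ATF5, PPP1R15B, IFRD1, SLC35A4 and EPRS) had a median RBMX effect of 0.06 in total and -0.03 in polysomal RNA, and of -0.033 in total RNA without control replicate 3. PPP1R15B, the constitutive counterpart of PPP1R15A, had -0.19 in total RNA, so that both phosphatase subunits had values of opposite sign. Between fractions, 4 of the 5 were lower in polysomal RNA in either vector, and 2 of the 5 with equal sums, with PPP1R15B at -0.22 in control and IFRD1 at -0.23 in RBMX cells.

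Enzymes of serine, glycine, folate and proline synthesis, 9 of 10 of which could be tested, had a median RBMX effect of 0.0072 in total RNA. Without control replicate 3, 7 of the 9 were lower in RBMX total RNA, with a median of -0.13. PYCR1, the last enzyme of proline synthesis, measured 11.2, 12.4 and 9.66 FPKM in control and 8.78, 8.16 and 8.18 FPKM in RBMX total RNA. Its log2 difference was -0.36 (SE 0.098, adjusted p = 0.183 in limma), and -0.37 in polysomal RNA. ALDH18A1, the first enzyme of the same route, had 0.31 in total and 0.36 in polysomal RNA, and MTHFD2 had -0.12. In polysomal RNA PSPH had -0.18. Between fractions, CTH, which makes cysteine, had -0.31 in control cells and -0.31 in RBMX cells, and PHGDH had 0.14 in RBMX cells.

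The 6 other amino acid transporters had a median RBMX effect of 0.0047 in total RNA, and all 6 overlapped between the vectors. Without control replicate 3 all 6 were lower in RBMX total RNA, with a median of -0.12. Between fractions they lay on the polysomal side, with 6 of 6 higher in polysomal RNA of control cells and 5 of 6 in RBMX cells. SLC7A5, the large neutral amino acid transporter that also pairs with SLC3A2, had 0.13 in control and 0.25 in RBMX cells. SLC7A1 had 0.25 and SLC1A4 0.13 in RBMX cells. SLC3A2 itself had -0.39 and -0.33, so that it lay on the other side of 0 from this partner.

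Among 12 other targets of ATF4 and DDIT3, 5 were higher and 7 lower in RBMX total RNA, with a median of -0.02, and 4 were higher without control replicate 3, with a median of -0.09. GDF15 had 0.26 at levels of 0.394 to 0.941 FPKM, XPOT, an exporter of tRNA, had -0.20, and BBC3, a trigger of apoptosis, had 0.12. In polysomal RNA XPOT had -0.18 and VEGFA had -0.15. Between fractions, VEGFA measured 25.5, 26.3 and 22.6 FPKM in total and 18.5, 18.9 and 18.0 FPKM in polysomal RNA of RBMX cells. This gave a log2 difference of -0.40 (adjusted p = 0.0657 in limma), which passed with small RNA genes left out (adjusted p = 0.033), also with quantile normalization (adjusted p = 0.049). With cultures paired the adjusted p of VEGFA in limma was 0.128, and over all alternatives it reached 0.240. HERPUD1 had -0.27 in control and -0.29 in RBMX cells, FGF21 had -0.51 in control cells and VLDLR had 0.16 in RBMX cells.

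Chaperones of the endoplasmic reticulum, which mark the unfolded protein response, had a median RBMX effect of 0.37 in total and 0.26 in polysomal RNA, with 5 of 6 higher in both. Their summed FPKM was 947, 820 and 561 in control and 1175, 1089 and 946 in RBMX total RNA. It was 1093, 1118 and 617 in control and 1277, 1202 and 1082 in RBMX polysomal RNA, and control replicate 3 was the lowest library in both fractions. Without it the median was 0.23 in total RNA, with 6 of 6 higher, and -0.0027 in polysomal RNA, with 3 of 6 higher. SDF2L1 measured 64.8, 68.6 and 61.1 FPKM in control and 77.9, 79.0 and 87.7 FPKM in RBMX total RNA, without overlap. Its log2 difference was 0.33 (SE 0.074, adjusted p = 0.176 in limma). CALR had 0.60 with a 95% interval of -0.14 to 1.34, where control replicate 3 measured 229.6 FPKM beside 482 and 428 FPKM, and 0.28 without that library. Of 6 chaperones, 5 were higher in polysomal than in total RNA in both vectors, with SDF2L1 at 0.26 in control cells, while DNAJB9 had -0.19 there.

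**Figure D5:**
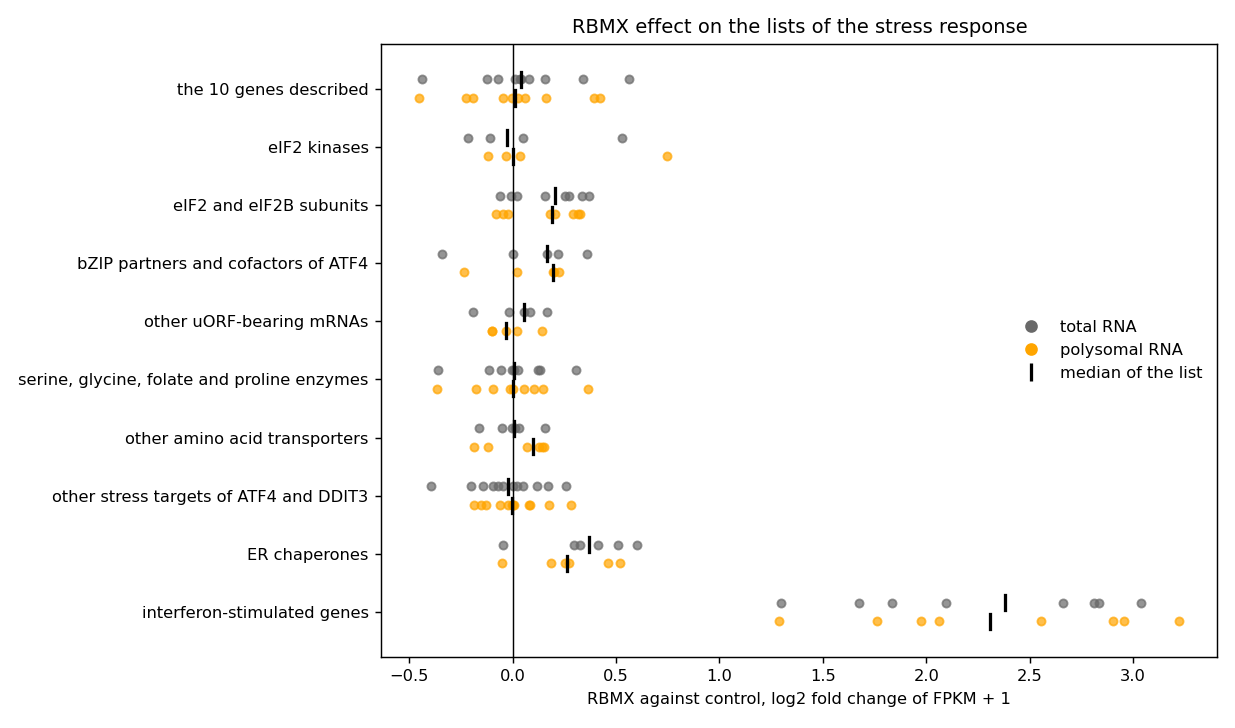
Log2 difference of FPKM + 1 between RBMX and control for every tested gene of the 10 members and of 9 lists, in total RNA (grey) and polysomal RNA (orange). Points are genes and black bars are the medians of a list. All lists but the interferon-stimulated genes, with medians of 2.38 and 2.31, have medians between -0.03 and 0.37.

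Over the 12 libraries the 10 genes did not share one pattern. ATF4 and DDIT3 went together with a Pearson r of 0.887, and ASNS and PSAT1 with 0.922, while PPP1R15A and SLC7A11 went opposite ways with -0.861. These coefficients describe 12 libraries that share vectors, fractions and control replicate 3. By the same measure, the genes most like ATF4 among 14166 others were C11orf31, LSM10, TMSB10, UQCRHL and SNHG10, with r from 0.982 to 0.993. Those most like the mean of the 10 standardised levels were PTCD2, CNOT4, ATL2, QARS and MTO1, with r from 0.895 to 0.919.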

How the data were processed

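RNA of 12 HEK293 libraries was analysed, 3 for each vector and fraction. The authors deposited FPKM values per gene symbol. The submitters' processing notes name CASAVA 1.8, TopHat2 2.0.13, Cuffnorm and Cufflinks 2.2.1 with hg19. The study's methods describe another build and count-based tests, which were not used here. The members and lists were chosen with earlier results of these data known.

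Values were set to log2(FPKM + 1), and 14676 genes with a mean of at least 0.5 were tested with limma 3.58.1 (R 4.3.3; lmFit, eBayes with trend, Benjamini-Hochberg, threshold 0.05), after tests on simulated data. Plots used Python 3.11.15 and matplotlib 3.10.9. Single values had an exact permutation test, whose smallest p for 3 against 3 is 0.1. Named are all 10 members and, per list and comparison, up to 3 genes with the largest difference and no overlap. ERO1A was matched as ERO1L. Depth is unknown, since only 11.5% to 23.5% of low genes shared one step.

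Total RNA was pooled from gradient fractions, per the protocol, which also names separate dishes, so pairing total and polysomal RNA of 1 replicate is an assumption. Without small RNA genes, their deviations correlated across genes with 0.619, 0.719 and 0.848 in control and 0.231, 0.021 and 0.684 in RBMX cultures. Alternatives were another pseudocount (0.1), other minimums (0.1, 1 or none), 3 other scalings, eBayes without trend, a replicate block, all 12 libraries in one fit and leaving out each replicate. Leaving out small RNA genes, also with quantile normalization, and leaving out control replicate 3 in both fractions or from the lists were chosen after seeing the data.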

Additional observations from a re-analysis of the deposited data

How the results depend on the processing

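Of the 10 genes, 0 passed the threshold under any alternative in control polysomal against total RNA, in RBMX against control in polysomal RNA and in the difference between fractions. PPP1R15A passed in total RNA without RBMX replicate 3, which made 0 to 1 genes over the libraries left out. In RBMX polysomal against total RNA, 1 gene passed without the trend (ATF4), 2 with small RNA genes left out (ATF4 and DDIT3) and 1 with quantile normalization besides (DDIT3). Of the other genes named, IFIT2 passed in total RNA without RBMX replicate 3, and VEGFA in RBMX polysomal against total RNA with small RNA genes left out, also with quantile normalization. The cause was not tested.

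The number of genes called moved with several settings. For RBMX against control in total RNA it was 24, and 62 with a minimum of 0.1, 77 without a filter, 60 with all 12 libraries and 19 to 178 with 1 library left out. It was highest without RBMX replicate 3. In polysomal RNA it was 7, and 14, 31, 22 and 9 to 126 under the same settings, again highest without RBMX replicate 3. It was 2 without small RNA genes, also with quantile normalization. For polysomal against total RNA in control cells it was 12, and 41 with all 12 libraries, 6 without small RNA genes, 7 with quantile normalization besides and 12 to 26 with 1 library left out, highest without control polysomal replicate 3. For the same comparison in RBMX cells it was 196, and 61 without a filter, 70 with quantile normalization, 60 with equal sums, 21 with all 12 libraries, 454 without small RNA genes, 406 with quantile normalization besides and 10 to 42 with 1 library left out. For the difference between fractions it was 3, and 0 without small RNA genes, 0 with quantile normalization besides and 3 to 7 with 1 library or control replicate 3 left out. The split in control polysomal against total RNA was 3 higher and 9 lower, and it was 3 and 5 with quantile normalization or equal sums. Quantile normalization without small RNA genes gave splits of 0 and 7 there, of 27 and 6 in place of 16 and 8 for RBMX in total RNA, and of 2 and 0 in place of 4 and 3 in polysomal RNA. Equal sums moved the median of all genes to 0.12 in RBMX and 0.080 in control polysomal against total RNA.

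With the replicate block, RBMX against control called 13 genes in total and 3 in polysomal RNA. Polysomal against total RNA called 6 in control and 4 in RBMX cells, and the difference called 5. It changed no adjusted call of the 10 genes. Between vectors the replicates share only a number: their deviations correlated with 0.347, -0.0448 and 0.0215 in total and -0.161, 0.028 and 0.0724 in polysomal RNA.

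As deposited and with all libraries kept, 0 of the 10 genes passed, so any sign that turned belonged to a value short of the threshold. In total RNA the turned values were, with quantile normalization, equal sums and quantile normalization without small RNA genes, -0.22, -0.0055 and -0.038 for ATF4, -0.019, -0.00019 and -0.0035 for ASNS, and -0.045, -0.030 and -0.034 for TRIB3. In polysomal RNA, CHAC1 was 0.0077 with median-ratio scaling and 0.0018 with equal sums, and TRIB3 -0.0013 with quantile normalization. For polysomal against total RNA in control cells, ATF4 was 0.024 with quantile normalization and TRIB3 0.011 with equal sums. In RBMX cells quantile normalization gave 0.018 for ATF4, 0.029 for PPP1R15A and 0.0093 for SESN2, and equal sums gave 0.053 for PPP1R15A, 0.074 for TRIB3, 0.080 for CHAC1 and 0.12 for SESN2. For the difference between fractions SLC7A11 was 0.019, 0.0096 and 0.015 under the 3 settings named first.

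With 1 library left out, the log2 differences in total RNA ranged from -0.14 to 0.13 for ASNS, -0.019 to 0.049 for TRIB3, -0.037 to 0.14 for SESN2 and -0.30 to 0.047 for PSAT1. In polysomal RNA they ranged from -0.30 to 0.027 for DDIT3, -0.39 to 0.15 for ASNS, -0.065 to 0.064 for CHAC1 and -0.31 to 0.26 for PSAT1. For polysomal against total RNA in control cells they ranged from -0.090 to 0.12 for PPP1R15A, -0.33 to 0.21 for ASNS, -0.22 to 0.013 for SESN2, -0.35 to 0.24 for PSAT1 and -0.093 to 0.20 for SLC7A11. In RBMX cells they ranged from -0.21 to 0.028 for PPP1R15A, -0.099 to 0.0013 for CHAC1, -0.084 to 0.032 for SESN2, -0.074 to 0.11 for PSAT1 and -0.016 to 0.040 for SLC7A11. For the difference between fractions they ranged from -0.43 to 0.11 for ASNS, -0.021 to 0.057 for TRIB3, -0.037 to 0.20 for SESN2, -0.23 to 0.36 for PSAT1, -0.19 to 0.10 for SLC7A11 and -0.017 to 0.12 for SLC3A2. Without control replicate 3 in both fractions it was -0.0086 for PSAT1. In each of the 5 comparisons the direction of the other members held in all these runs.

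The depth of the libraries is unknown, so no limit of detection is given, and 3 libraries per group leave wide intervals. FPKM values, scaled within each library, cannot show a shift shared by all mRNAs.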
